A study of Mus musculus with 34 samples.

Results

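Bmf encodes a BH3-only member of the BCL2 family, and it is described here together with 9 relatives (Bcl2l11, Bbc3, Pmaip1, Bid, Bcl2, Bcl2l1, Mcl1, Bax and Bak1) in the liver of mouse pups with altered thyroid hormone. These 10 genes were chosen by name, out of 33269 genes or identifiers on the array, because Bmf had differed about 4-fold between hypo+ and hypo pups in an earlier look at the same arrays. The values of hypo+ against hypo are therefore a description, and the members are represented by 18 probes whose RefSeq accession matches 1 of the 10 symbols.

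The arrays measured liver RNA of 34 C57BL/6 pups at PND 15, 17 of each sex, in 4 treatments. Control pups received saline (n = 4 males and 4 females). Hypo pups were nursed by dams whose water held 0.05% methimazole and 1% perchlorate for 3 days, which block hormone synthesis and iodide uptake in the thyroid, and then received saline (n = 4 males and 5 females). Hypo+ pups had the same exposure and an i.p. injection of 20 µg T4 and 2 µg T3 per 100 g 4 h before collection (n = 4 males and 3 females), and the study kept for this group pups picked by their serum T4. Hyper pups had no goitrogen and received 50 µg T4 and 5 µg T3 per 100 g 4 h before collection (n = 5 males and 5 females). The hyper and hypo+ injections therefore differed in dose as well as in the exposure before them. Each array compared the Cy5-labelled RNA of 1 pup with a Cy3-labelled universal mouse reference RNA, and a value below is the loess-normalized log2 ratio of pup to reference unless a difference between groups is named.

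BH3-only proteins (BMF, BIM from Bcl2l11, PUMA from Bbc3, NOXA from Pmaip1, and BID) bind the pro-survival proteins BCL2, BCL-XL (Bcl2l1) and MCL1, and they release or activate BAX and BAK (Bak1), which open pores in the outer mitochondrial membrane. BMF is held at the actin-bound myosin V motor through a dynein light chain, as BIM is held at microtubules, until stress frees it. In hepatocytes BCL-XL and MCL1 are the main survival proteins, and BID carries death receptor signals to mitochondria.

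The start regions of Bmf and Bcl2l11 are shown first because Bcl2l11 had the values most like those of Bmf across pups among the other members. Each window runs from 250 bases before to 50 bases after a RefSeq start site (GRCm38.p6) and is written 5′ to 3′ along the gene. Capitals mark the nuclear receptor half-sites AGGTCA and AGGACA and the FOXO motif GTAAACA, searched on both strands.
Bmf window 1, chr2:118544538-118544837, minus strand: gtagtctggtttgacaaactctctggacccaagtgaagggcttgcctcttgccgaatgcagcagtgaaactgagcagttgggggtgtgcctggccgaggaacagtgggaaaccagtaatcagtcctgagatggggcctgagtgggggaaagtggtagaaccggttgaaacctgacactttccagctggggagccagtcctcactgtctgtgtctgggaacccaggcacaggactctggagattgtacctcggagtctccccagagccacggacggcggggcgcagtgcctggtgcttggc
Bmf window 2, chr2:118549637-118549936, minus strand: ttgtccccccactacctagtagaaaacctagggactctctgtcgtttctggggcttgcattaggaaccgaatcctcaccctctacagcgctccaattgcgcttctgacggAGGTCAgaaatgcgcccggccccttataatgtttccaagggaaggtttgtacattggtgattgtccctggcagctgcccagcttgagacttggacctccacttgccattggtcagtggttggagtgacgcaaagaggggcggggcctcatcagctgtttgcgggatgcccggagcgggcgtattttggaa
Bmf window 3, chr2:118547550-118547849, minus strand: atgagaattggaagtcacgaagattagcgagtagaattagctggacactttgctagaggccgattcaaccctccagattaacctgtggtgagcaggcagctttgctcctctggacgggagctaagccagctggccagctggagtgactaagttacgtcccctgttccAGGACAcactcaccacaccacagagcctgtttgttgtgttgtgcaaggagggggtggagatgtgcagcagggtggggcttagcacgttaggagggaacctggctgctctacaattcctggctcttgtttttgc
Bcl2l11 window 1, chr2:128125788-128126087, plus strand: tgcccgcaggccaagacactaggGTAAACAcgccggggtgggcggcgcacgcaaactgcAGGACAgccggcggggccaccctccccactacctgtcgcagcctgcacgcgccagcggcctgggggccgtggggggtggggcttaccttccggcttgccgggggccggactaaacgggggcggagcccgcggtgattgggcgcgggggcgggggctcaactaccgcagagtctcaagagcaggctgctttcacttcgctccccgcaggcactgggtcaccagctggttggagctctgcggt
RefSeq gave 16 such windows for the 9 members searched, and 3 of them belong to Bmf. AGGTCA occurred once in Bmf window 2, at bases 111 to 116, and AGGACA once in Bmf window 3, at bases 168 to 173. Of all 32851 windows in the table, 16.3% held AGGTCA and 20.1% held AGGACA. Bcl2l11 window 1 held GTAAACA at bases 24 to 30, which 3.65% of all windows held, and AGGACA at bases 60 to 65. A direct repeat of AGGNCA spaced by 4 bases was in none of the windows of the members and in 0.253% of all windows. Among the windows not shown, Bcl2l1 window 1 held AGGTCA at bases 147 to 152 and Bbc3 window 2 held GTAAACA at bases 84 to 90, both on the opposite strand. Bmf window 1 held none of these motifs, nor did Bcl2l11 window 2 (chr2:128127325-128127624, GC content 74%), which is not shown. The GC content of the Bmf windows was 58.7, 55.3 and 53.3%, and that of Bcl2l11 window 1 was 71.0%, beside a median of 52.7% over all windows.

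All member values come from whole liver, so that fewer cells of a type and less RNA per cell cannot be told apart. The hepatocyte markers on the array (3 of 5 listed) were well above background on all 34 arrays. Pancreatic acinar markers (7 of 7 on the array) were high in 4 pups, male control pups 832 and 522, female control pup 831 and female hypo+ pup 543, with a mean log2 ratio of 1.86 to 4.66 against 0.03 to 0.63 in the other 30 pups. Their summed Cy5 signal was 5077 to 72267 in the 4 pups and 1702 to 3973 in the others, and Pnlip, a marker of that list, was well above background on 3 of 34 arrays. In males the median of the 7 markers was 2.18 lower in hypo than in control, 2.19 lower in hyper and 2.13 lower in hypo+ (log2). Without these pups, Bmf is given in full, and the differences of the other 9 members from control moved by at most 0.09 (log2). Such values are given beside several of those members.

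The hepatocyte marker median was higher than in control by 0.32 in hypo and 0.42 in hypo+ males (3 of 3 markers higher, none called). In hyper males it was 0.10 higher. In females it differed from control by -0.10 in hypo, -0.14 in hyper and 0.16 in hypo+ (log2, none called). The summed Cy5 signal of these markers was 592171 to 771053 over all groups. The neutrophil markers (3 of 4 on the array) had a median 0.46 lower in hypo+ than in hypo in males and 0.48 lower in females (log2), none called. Their summed Cy5 signal was 5769 to 33529 in hypo and 6402 to 15069 in hypo+ males, and 12945 to 26003 and 7403 to 11919 in females. In the other 6 lists the medians lay between -0.15 and 0.38. The part of these cell types in the members' values was not tested.

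Bmf was lowest in hypo pups and highest in hyper pups in both sexes. In males, the control pups had log2 ratios of 0.27, 0.72, 0.80 and 1.06, the hypo pups -0.90, -0.83, -0.49 and -0.22, the hyper pups 0.87, 1.22, 1.78, 1.91 and 2.14, and the hypo+ pups 1.17, 1.39, 1.39 and 1.84. All 4 male hypo pups lay below every control pup, and all 4 male hypo+ pups lay above every control pup, whereas the lowest hyper pup lay among the controls. In females, the control pups had 0.67, 0.97, 1.25 and 1.26, the hypo pups -0.65, -0.41, -0.32, -0.30 and 0.31, the hyper pups 1.57, 1.73, 1.93, 1.94 and 2.02, and the hypo+ pups 1.11, 1.69 and 2.13. All 5 female hyper pups lay above every control pup and all 5 hypo pups below, whereas the lowest hypo+ pup lay among the controls.

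**Figure D1:**
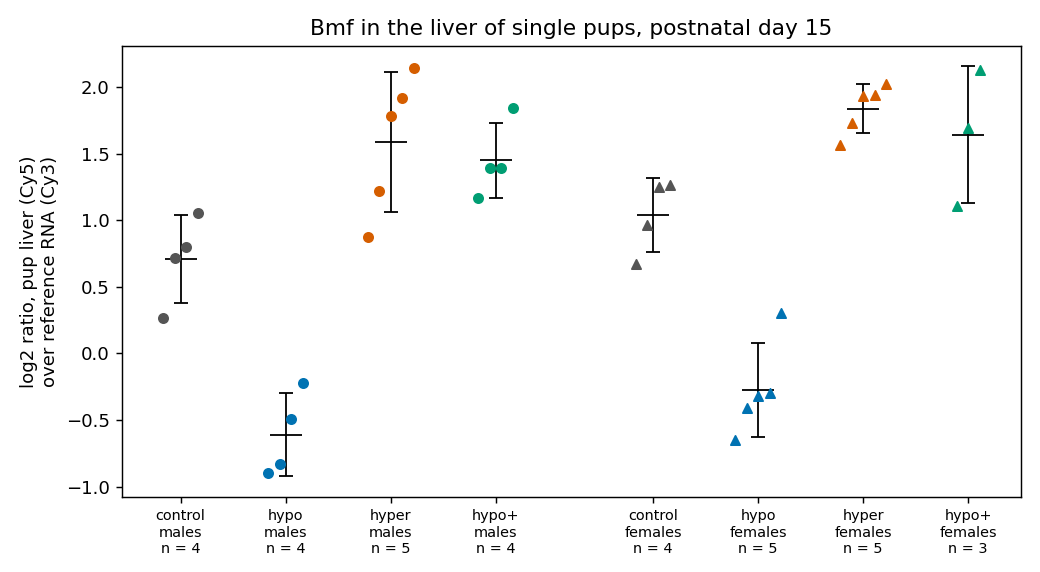
Bmf log2 ratio of pup liver over reference RNA (vertical axis) for each pup in the 8 groups of sex and treatment (horizontal axis), with the group mean (long bar) and SD (error bar). Hypo pups sit between -0.90 and 0.31, control pups between 0.27 and 1.26, and hyper and hypo+ pups between 0.87 and 2.14.

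The group means of Bmf were -0.61 ± 0.31 in hypo, 0.71 ± 0.33 in control, 1.45 ± 0.28 in hypo+ and 1.59 ± 0.52 in hyper males (SD, n = 4, 4, 4 and 5). In females they were -0.28 ± 0.35, 1.04 ± 0.28, 1.64 ± 0.51 and 1.84 ± 0.19 in the same order (SD, n = 5, 4, 3 and 5). The order was the same in both sexes. Hypo+ and hyper were neighbours whose means did not differ beyond their spread in either sex. Control and hypo+ pups overlapped in females, although their means were 0.61 apart beside a pooled SD of 0.41. Hypo+ exceeded hypo by 2.06 ± 0.25 on the log2 scale in males (SE), a 4.17-fold difference, and by 1.92 ± 0.22 in females, a 3.78-fold difference. These are the values by which Bmf was singled out, and no test is given for them. Hypo pups had 2.50-fold less Bmf than controls in males (log2 difference -1.32 ± 0.25) and 2.48-fold less in females (-1.31 ± 0.20). Hypo+ pups had 1.67-fold more than controls in males (0.74 ± 0.25) and 1.52-fold more in females (0.61 ± 0.23), and without female hypo+ pup 601 the latter was 0.36. These 2 comparisons share the hypo or hypo+ pups with the one that chose Bmf, and they are likewise given without a test.

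Hyper against control, which compares no pup of hypo+ against hypo, was the 1 treatment comparison in which Bmf was tested. The spread used in the test still came from all 4 groups of a sex, hypo and hypo+ pups included. Bmf was 1.84-fold higher in hyper males (log2 difference 0.88 ± 0.23, SE) and 1.74-fold higher in hyper females (0.80 ± 0.20). Neither passed the threshold of 0.05 in limma with Benjamini-Hochberg adjustment over all 41174 probes (adjusted p = 0.483 in males and 0.198 in females; unadjusted p = 0.0017 and 0.000922). The same rule called 0.0782% of all genes in male and 0.159% in female hyper pups. With only hyper and control pups in the fit, the limma adjusted p for Bmf was 0.793 in males and 0.0648 in females. Without the pups that had pancreatic acinar RNA, the log2 difference was 0.70 ± 0.29 in males and 0.68 ± 0.22 in females, so that the direction stayed and the size was smaller. Without them hypo minus control was -1.50 and -1.43, hypo+ minus control 0.56 and 0.46, and hypo+ minus hypo 2.06 and 1.90, in males and females. The other 9 members gave no call without them either. Arrays shared a slide, and 4 slides of each sex held both a hyper and a control pup. Bmf was higher in the hyper pup on all 4 of these slides in males, by 0.07 to 1.52, and on all 4 in females, by 0.67 to 0.90. Hypo was below control on 3 of 3 such slides in males, by -1.88 to -1.02, and on 4 of 4 in females, by -1.90 to -0.37. Hypo+ was above control on 3 of 3 slides in males, by 0.45 to 1.13, and on 1 of 2 in females, where the differences were 1.02 and -0.14. The hypo and hypo+ counts share pups with the comparison that chose Bmf and are a description. Some of these controls had pancreatic acinar RNA (male pups 832 and 522, female pup 831). On their slides hyper minus control was 1.52, 0.07 and 0.90, and hypo minus control -1.16, -1.02 and -0.37. Hypo+ minus control was 1.13, 0.59 and 1.02 there, the last with hypo+ pup 543, which had such RNA too.

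The 3 Bmf probes, all assigned to the same RefSeq accession, did not behave alike. The values above come from the brightest, A_52_P384394, with a mean Cy5 signal of 2023. Probe A_51_P482239, with a mean Cy5 signal of 302, was well above background on all 34 arrays. Its differences from control lay between -0.18 and 0.09 over the 3 treatments and both sexes. Hyper minus control on this probe was 0.03 ± 0.06 in males and -0.07 ± 0.09 in females (log2, SE), the latter opposite in sign to the brightest probe. Its hypo+ pups exceeded its hypo pups by 0.09 ± 0.06 in males and 0.26 ± 0.10 in females (log2, SE). Probe A_52_P78830 was dim, with a mean Cy5 signal of 101, and was well above background on 13 of 34 arrays, so that no fold is given for it. It was well above background in 0 of 9 hypo pups, 1 of 8 control pups, 7 of 10 hyper pups and 5 of 7 hypo+ pups. Which part of the transcript each probe covers was not analysed here. The size of the Bmf differences is therefore that of 1 probe, and when all 3 probes were averaged hypo+ exceeded hypo by 0.82 in males and 0.81 in females.

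**Figure D2:**
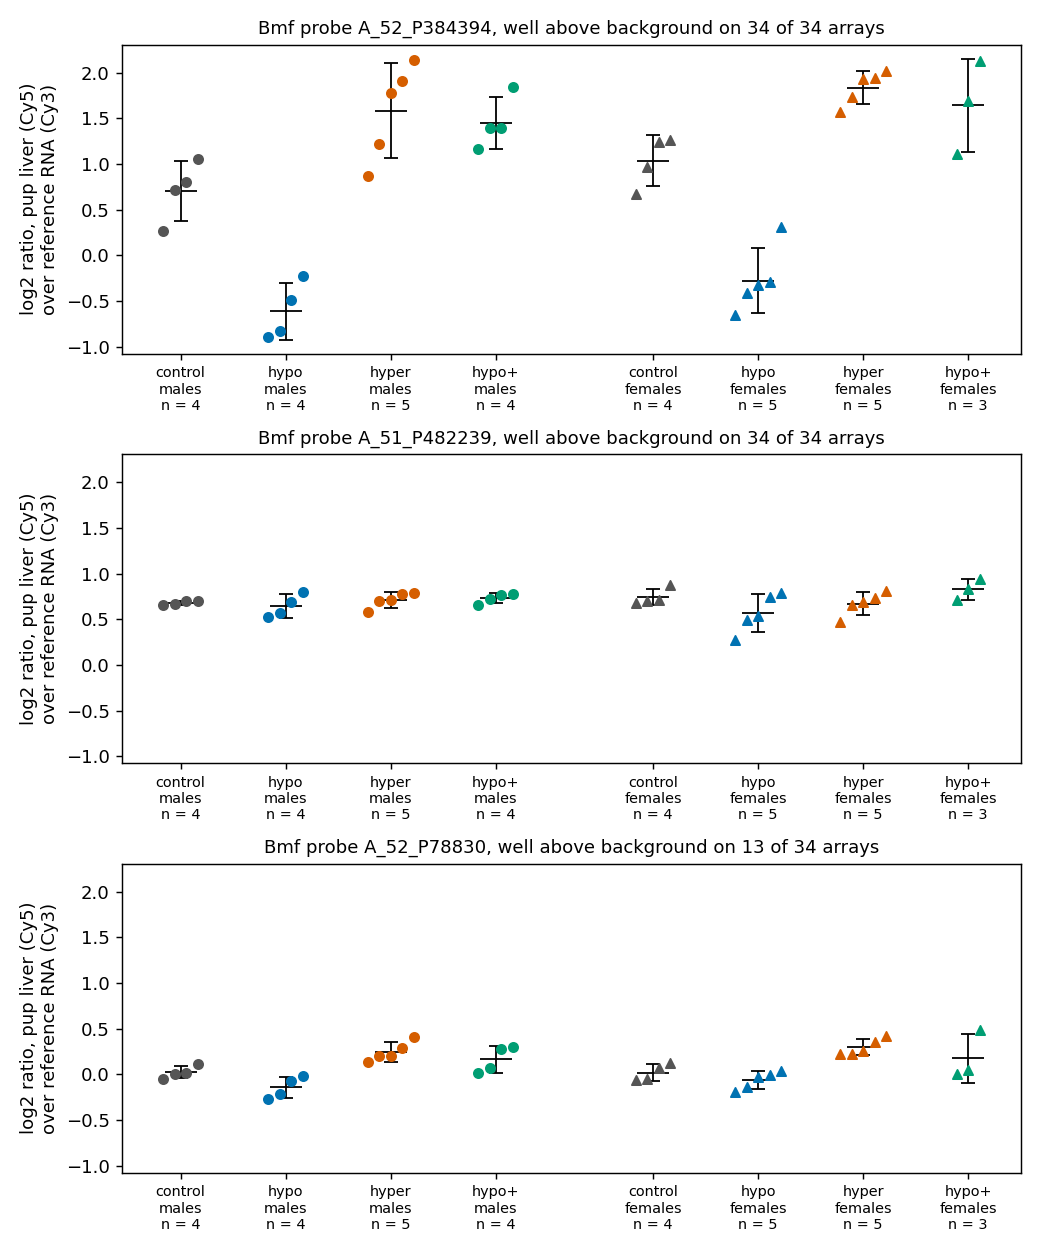
Log2 ratio of pup liver over reference RNA (vertical axis) for the 3 Bmf probes in the 8 groups of sex and treatment, 1 panel per probe on a shared scale, with group mean and SD. The brightest probe spans -0.90 to 2.14, the probe in the middle panel is nearly level across groups, and the dim probe in the lowest panel spans a narrow range.

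The responses of males and females to each treatment were compared in 1 fit of 8 groups. That fit takes the 34 pups as independent, although pups of both sexes can share a dam, which the study avoided by analysing the sexes apart. For Bmf the female difference minus the male difference in hyper against control was -0.08 (95% interval -0.74 to 0.59). For hypo and hypo+ against control it was 0.01 and -0.13, given without a test. Of the 28 tests of such a sex difference (9 members in 3 comparisons, and Bmf in hyper), limma called none, with an adjusted p of 1 throughout and unadjusted p from 0.186 to 0.986. Among all genes 0% were called as well in hypo, hyper and hypo+, beside 351, 420 and 443 genes with an unadjusted p under 0.05 (1.06%, 1.26% and 1.33%). These intervals do not show that the sexes responded alike.

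None of the other 9 members was called by limma in hypo, hyper or hypo+ against control in either sex. The share of all genes called was 0.105% in males and 0.156% in females for hypo, the shares given above for hyper, and 0.0271% and 0.021% for hypo+. At an unadjusted p under 0.05, 0 male and 2 female members differed in hypo, 1 and 3 in hyper, and 2 and 1 in hypo+. The shares of all genes under the same limit were 5.2% and 4.75%, 2.97% and 5.82%, and 7.26% and 4.81%. The median log2 difference of the 9 genes lay between -0.11 and 0.03 in the 6 comparisons, beside medians over all genes between -0.01 and 0.00. The single differences ran from -0.45 to 0.44, with SEs of 0.05 to 0.17. In groups that did not overlap with control there were 0 male and 2 female members in hypo (3.08% and 1.71% of all genes), 1 and 1 in hyper (1.25% and 2.51%), and 0 and 0 in hypo+ (3.99% and 5.95%).

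**Figure D3:**
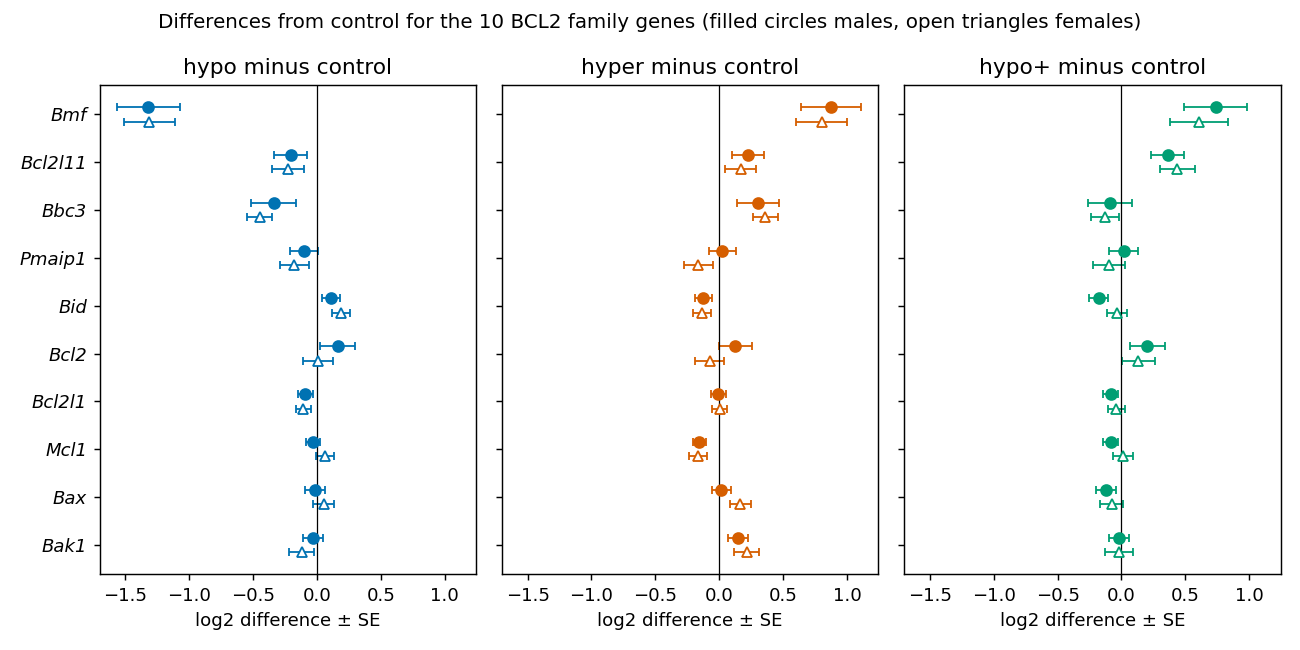
Log2 difference from control with its SE (horizontal axis) for each of the 10 genes (vertical axis) in hypo, hyper and hypo+ pups, with filled circles for males and open triangles for females. Bmf lies from -1.32 to 0.88, and the other 9 genes lie between -0.45 and 0.44.

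Bcl2l11, which encodes BIM and shares with Bmf the binding to a dynein light chain, had the largest difference after Bmf in hypo+ against hypo in both sexes. In males, the control pups had log2 ratios of -0.58, -0.29, -0.14 and -0.08, the hypo pups -0.65, -0.53, -0.37 and -0.37, the hyper pups -0.25, -0.06, -0.03, -0.02 and 0.12, and the hypo+ pups -0.30, 0.08, 0.26 and 0.32. In females, the control pups had -0.36, -0.30, -0.14 and -0.01, the hypo pups -0.62, -0.56, -0.47, -0.32 and -0.18, the hyper pups -0.09, -0.08, -0.08, 0.00 and 0.07, and the hypo+ pups -0.04, 0.08 and 0.66. Hypo and control overlapped in both sexes, as did control and hyper. All hypo+ pups of either sex lay above all hypo pups of that sex. Hypo+ exceeded control by 0.36 ± 0.13 in males and 0.44 ± 0.14 in females (log2, SE), which did not pass the threshold (limma adjusted p = 0.497 and 0.624). The female value rests in part on hypo+ pup 601, and without it the difference was 0.22. It was 0.17 with the slide as a fixed block, in which pup 601 carries no weight, and 0.26 with both probes averaged. The male value was 0.15 with arrays centred on their median and 0.24 with both probes averaged. Hypo was lower than control by 0.21 ± 0.13 in males and 0.23 ± 0.12 in females, and hyper was higher by 0.22 ± 0.12 and 0.17 ± 0.12, none of them past the threshold (limma adjusted p = 0.947 to 1). Without the pups with pancreatic acinar RNA the male hyper difference was 0.13.

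Hypo+ exceeded hypo in Bcl2l11 by 0.57 ± 0.13 in males and 0.67 ± 0.13 in females, or 1.48-fold and 1.59-fold, against 4.17-fold and 3.78-fold for Bmf. As a description of the comparison that chose Bmf, 0 of the other 9 members were called there in males (0.373% of all genes) and 1, Bcl2l11, in females (0.571%). Bcl2l11 followed Bmf over the pups (r = 0.81), so that this call is not independent of the choice of Bmf. In that comparison 2 members in males (4.6% of all genes) and 1 in females (5.05%) had groups that did not overlap. Without hypo+ pup 601 the female Bcl2l11 difference was 0.45, and with both probes averaged it was 0.44 in females and 0.33 in males. The second Bcl2l11 probe was well above background on 24 of 34 arrays, and on it hypo+ exceeded hypo by 0.09 ± 0.10 in males and 0.20 ± 0.07 in females.

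Bbc3 encodes PUMA, a BH3-only protein known as a target of p53 and FOXO factors. In males, the control pups had log2 ratios of -1.34, -1.23, -1.22 and -1.06, the hypo pups -1.71, -1.63, -1.54 and -1.33, the hyper pups -1.63, -0.86, -0.77, -0.66 and -0.61, and the hypo+ pups -1.51, -1.41, -1.27 and -1.01. In females, the control pups had -1.15, -1.07, -0.97 and -0.94, the hypo pups -1.76, -1.55, -1.42, -1.40 and -1.30, the hyper pups -0.85, -0.67, -0.67, -0.64 and -0.55, and the hypo+ pups -1.41, -1.14 and -0.94. In females the hypo pups all lay below and the hyper pups all above the controls. In males 4 of 5 hyper pups lay above every control pup and hyper pup 498 lay below all of them. Hypo was lower than control by 0.45 ± 0.10 in females (log2, SE) and by 0.34 ± 0.17 in males, and neither passed the threshold (limma adjusted p = 0.0958 and 1). With the slide as a fixed or a random block, the female difference did pass (log2 difference -0.46 and -0.45, adjusted p = 0.0464 and 0.0253). Over the alternatives its adjusted p was otherwise no lower than 0.062. Hyper exceeded control by 0.36 ± 0.10 in females and 0.31 ± 0.16 in males (limma adjusted p = 0.299 and 1), and without pup 498 the male difference was 0.49 ± 0.11 (adjusted p = 0.2). In hypo+ pups Bbc3 was near control, with differences of -0.09 ± 0.17 in males and -0.13 ± 0.11 in females. Without the pups with pancreatic acinar RNA these were -0.16 and -0.22.

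**Figure D4:**
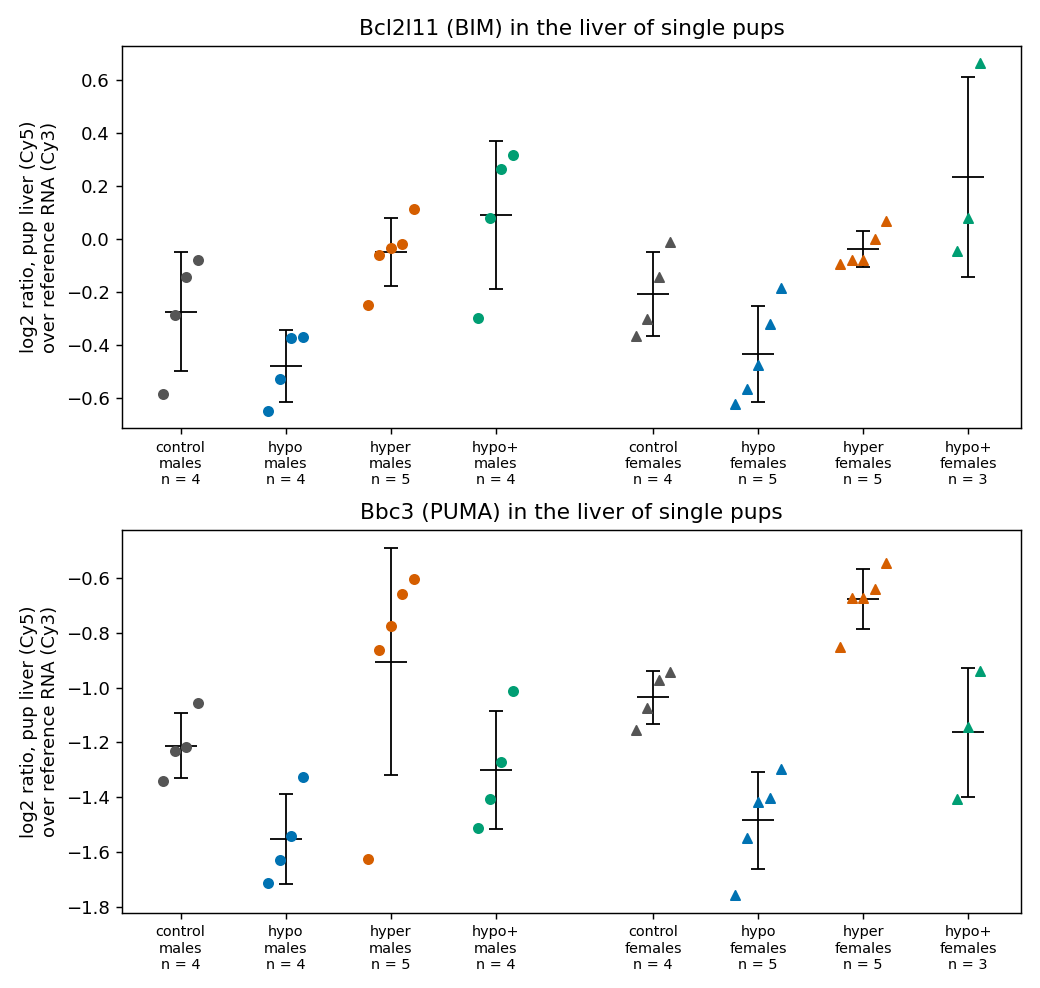
Log2 ratio of pup liver over reference RNA (vertical axis) for Bcl2l11 (upper panel) and Bbc3 (lower panel) in each pup of the 8 groups, with group mean and SD. Bcl2l11 runs from -0.65 to 0.66 and Bbc3 from -1.76 to -0.55, with 1 male hyper pup at -1.63 apart from the other 4.

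Pmaip1 and Bid complete the BH3-only members. Pmaip1, which encodes NOXA, a ligand of MCL1, had log2 ratios to the reference between -2.67 and -2.04 in single pups. Its differences from control were between -0.18 and 0.03 in the 6 comparisons, with SEs of 0.11 to 0.13. Bid had differences from control opposite in sign to those of Bmf in all 6 comparisons. With arrays centred on their median in place of loess, the female hyper difference turned to 0.03. The female hypo+ difference of -0.03 turned to 0.02 without the pups with pancreatic acinar RNA and to 0.01 without hypo+ pup 543 alone. In females the hypo pups had -0.33, -0.27, -0.25, -0.22 and -0.18 and the control pups -0.50, -0.43, -0.41 and -0.40, so that the groups did not overlap. The female hypo difference was 0.18 ± 0.07 (log2, SE), which did not pass the threshold (limma adjusted p = 0.771). The male hypo pups had -0.39, -0.35, -0.32 and -0.26 and the male controls -0.69, -0.42, -0.35 and -0.32, and these overlapped (difference 0.11 ± 0.07, and 0.04 without the pups with pancreatic acinar RNA). Hyper was lower than control by 0.12 ± 0.07 in males and 0.14 ± 0.07 in females, and male hypo+ by 0.18 ± 0.07, with unadjusted p = 0.0867, 0.0653 and 0.0229 in limma and adjusted p = 1, 0.851 and 0.557. Without the pups with pancreatic acinar RNA the male hyper difference was -0.20. In hypo+ against hypo, Bid was lower by 0.29 ± 0.07 in males and 0.22 ± 0.08 in females.

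The pro-survival members differed little between groups. Bcl2l1, which encodes BCL-XL, had differences from control of -0.11 to 0.01 with SEs of 0.06 to 0.07 on its brightest probe. Its second probe gave -0.29 ± 0.13 in hyper females (limma unadjusted p = 0.0386, adjusted p = 0.776). Bcl2 had differences of -0.07 to 0.20 with SEs of 0.12 to 0.14. Its second probe, well above background on all 34 arrays, went the other way in males, with -0.17 ± 0.11 against 0.16 ± 0.14 in hypo and -0.13 ± 0.11 against 0.20 ± 0.14 in hypo+, so that the direction for Bcl2 depends on the probe. Mcl1, which encodes MCL1, a short-lived survival protein, was measured by 2 probes. On the one used here, its male control pups had -0.17, -0.15, -0.14 and -0.07 and its male hyper pups -0.38, -0.30, -0.30, -0.25 and -0.21, without overlap between the groups. Mcl1 was lower in hyper than in control by 0.16 ± 0.05 in males and 0.17 ± 0.07 in females (log2, SE), and neither difference passed the threshold (limma adjusted p = 0.957 and 0.733). The second Mcl1 probe gave -0.21 ± 0.10 and -0.36 ± 0.09 in the same comparison (adjusted p = 1 and 0.226). Both probes thus gave lower means in hyper pups of both sexes, although with arrays centred on their median in place of loess the female difference of the first was -0.02.

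The effectors Bax and Bak1 were also close to control. Bax had differences of -0.12 to 0.17 with SEs of 0.07 to 0.09. Bak1 was higher in hyper than in control by 0.15 ± 0.08 in males and 0.21 ± 0.10 in females (limma adjusted p = 1 and 0.785), and its other differences from control lay between -0.12 and -0.02. The lowest of these, in hypo females, was -0.04 without the pups with pancreatic acinar RNA. The second Bak1 probe gave -0.08 ± 0.07 and -0.15 ± 0.06 for hyper, the opposite direction, so that the direction for Bak1 depends on the probe. In hyper females the Bax difference of 0.17 became -0.08 when the Cy5 channel was used alone.

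The similarity of the members to Bmf was described by Pearson's r over the 34 pups, whose values share groups, slides and a reference RNA. Bcl2l11 had r = 0.81, Bbc3 0.75, Bak1 0.39, Bcl2l1 0.37, Pmaip1 0.28, Bax 0.06, Bcl2 -0.01, Mcl1 -0.45 and Bid -0.66. After the mean of each group was subtracted, so that only the spread within groups remained, r was 0.68 for Bcl2l11, 0.48 for Bbc3, 0.28 for Pmaip1, 0.12 for Bid and Bax, 0.11 for Mcl1, 0.05 for Bcl2l1, -0.01 for Bcl2 and -0.31 for Bak1. For Bak1 and Bid the sign thus differed from that over all pups, as it did for Mcl1, whose second probe had r = -0.41 over all pups and 0.51 within groups. The second Bcl2l11 probe had r = 0.52, and 0.12 within groups. Pups with high Bmf thus also tended to have high Bcl2l11 inside their own group, on the brightest probe of each gene. Within groups the brightest Bmf probe had a lower r with the other Bmf probes, 0.28 for A_51_P482239 and 0.31 for the dim A_52_P78830. The part of effects shared by all probes of an array was not tested.

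**Figure D5:**
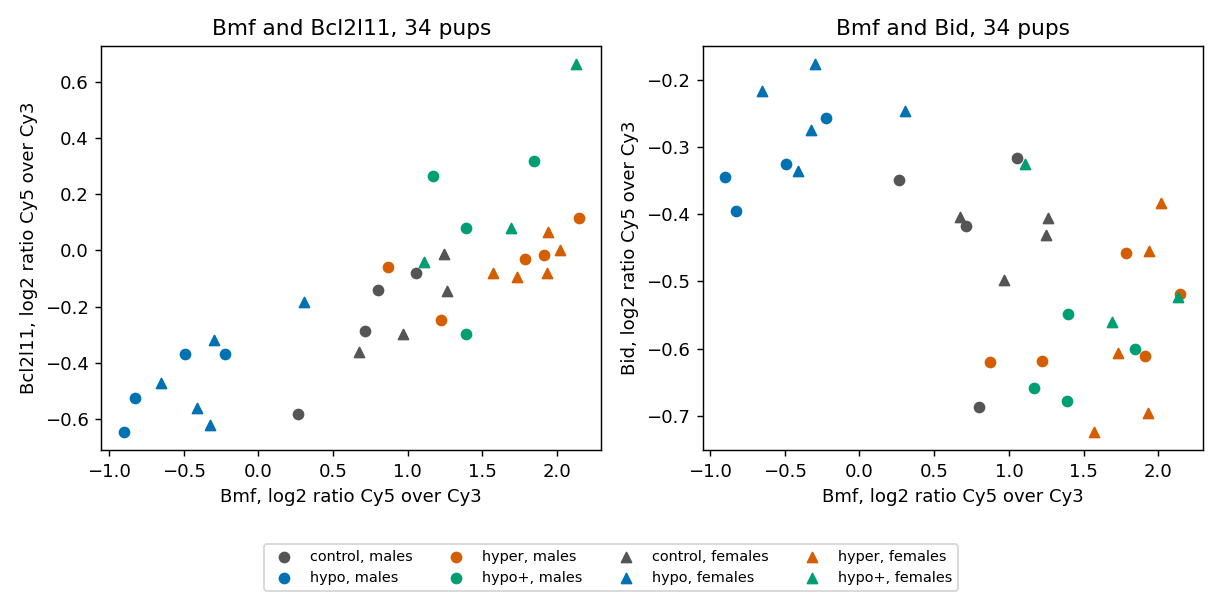
Bmf log2 ratio (horizontal axis) against the log2 ratio of Bcl2l11 (left) and Bid (right), 1 point per pup for 34 pups, with colours for the 4 treatments, circles for males and triangles for females. Bcl2l11 follows Bmf upwards (r = 0.81) and Bid runs downwards (r = -0.66), with the hypo pups at the low end of Bmf in both panels.

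Among 14100 genes with a probe well above background on at least 17 arrays, those most like Bmf were Stat5b (r = 0.93), a transcription factor that acts downstream of growth hormone, Mmd (0.93), Gch1 (0.91), which makes the first enzyme of tetrahydrobiopterin synthesis, Naa35 (0.91), a subunit of an N-terminal acetyltransferase, and Sned1 (0.90), an extracellular matrix protein. Their differences from control were -0.75 to -0.24 in hypo, 0.24 to 0.56 in hyper and 0.14 to 0.60 in hypo+, all smaller in size than those of Bmf in the same comparison and sex. The least like were Ppp1r3c (r = -0.87), which targets protein phosphatase to glycogen, Egln3 (-0.82), an oxygen-sensing prolyl hydroxylase, and Rbfox2 (-0.82), a splicing factor. Ppp1r3c was 1.12 and 1.03 above control in hypo males and females, and 0.97 and 0.98 below in hyper (log2). After the mean of each group was subtracted, r with Bmf was 0.64 for Stat5b, 0.61 for Naa35, 0.50 for Mmd, 0.29 for Gch1 and -0.05 for Sned1. It was -0.24 for Ppp1r3c, 0.03 for Egln3 and 0.09 for Rbfox2. All of these genes were found by a search over the same pups and carry no test.

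The wider cell death pathway was followed through 7 lists of 66 genes, of which 62 were on the array by matched symbol. They comprised 11 of 15 other BCL2 relatives, all 9 mitochondrial and apoptosome genes, 10 caspases, 6 inhibitors of apoptosis, 10 death receptor genes, 3 motor proteins that bind BMF and BIM, and 13 regulators of BH3-only genes such as FOXO factors and p53. None of the 62 was called by limma in hypo, hyper or hypo+ against control in either sex. At an unadjusted p under 0.05 there were 3 genes in male and 6 in female hypo pups, 4 and 5 in hyper, and 8 and 4 in hypo+, beside 2.97 to 7.26% of all genes in these comparisons as given above. The median log2 difference of the 62 genes was between -0.04 and 0.01. Dynll1, Dynll2 and Myo5a, the light chains and the myosin, had differences between -0.24 and 0.20. The 13 regulators ran from -0.71 to 0.31. In hyper females 3 of them had an unadjusted p under 0.05, beside 5.82% of all genes, and in the other comparisons with control 0 to 2 had. Of the 10 caspases, 3 were under this limit in hypo+ males, beside 7.26% of all genes, and 1 in each other comparison with control.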

How the data were processed

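Liver RNA of 34 pups was measured on Agilent 2-colour arrays, with sex, treatment and animal taken from the labels. The authors deposited scanner files (Feature Extraction) with the median intensity of each channel, not background-subtracted, and a log10 ratio from the scanner software. They also deposited a table of normalized values, whose scale is not stated and matched log2 ratios of the median signals (r = 0.846 to 0.995 per array, slope 0.711 to 0.989).

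From the median intensities, control and outlier spots (77 to 212 per array) were left out, loess was applied within arrays, and spots were averaged to 41174 probes in limma 3.58.1 under R 4.3.3. Median Cy5 signals were 146 to 199 and precision is limited by the number of arrays. RefSeq accessions gave a symbol for 16806 of 33541 systematic names. A gene's value is that of its probe with the highest mean Cy5 signal. Each sex was fitted separately with 4 groups, with Benjamini-Hochberg adjustment across the probes and a threshold of 0.05. P-values measure the spread between pups, and litters are not given in the labels. The code was tested on simulated data. Alternatives covered background correction, normalization, the channel, dim probes, probe averaging, slides, the samples in the fit and each left-out pup. Figures were drawn with matplotlib 3.10.9.

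Named genes were the 10 members with all probes, genes of 7 pathway lists called against control, and the 5 genes most and 3 least like Bmf. Members and lists were chosen with earlier results of these data known. Pmaip1 has no sequence shown.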

Additional observations from a re-analysis of the deposited data

Results flagged for a closer look

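Dixon's gap test was applied to the 70 groups of 4 or 5 pups formed by the 10 members, sex and treatment. Chance alone marks about 1 group in 20, and the test marked 3 groups. In Bbc3, male hyper pup 498 had a log2 ratio of -1.63, with the next pup at -0.86, and the same pup was the lowest of its group in Bmf, at 0.87. In Bcl2, male hypo+ pup 546 had 0.20, with the next pup at -0.27. In Bak1, male hypo pup 891 had -0.75, with the next pup at -0.84, in a group of small spread.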

How the results depend on the processing

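For Bmf, hyper against control stayed above 0 and short of the threshold under every alternative run in both sexes. No alternative used another Bmf probe alone. On probe A_51_P482239 the hyper difference was 0.03 ± 0.06 in males and -0.07 ± 0.09 in females (log2, SE). Apart from the fits that left out 1 pup, the lowest adjusted p over the alternatives was 0.0648 in females, with only the compared groups fitted. In males it was 0.221, with both sexes in 1 fit. Averaging all probes of a gene gave 0.38 in males and 0.33 in females (log2 difference), because the other 2 Bmf probes enter the mean. Leaving out each pup in turn gave 0.73 to 1.06 in males and 0.68 to 0.88 in females, with the lowest adjusted p at 0.125 without male hyper pup 498 and at 0.095 without female hypo pup 721. The mean of the within-slide differences was 0.80 in males and 0.78 in females.

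For the other 9 members, the number of calls against control was 0 in males under every alternative. In females it was 1 with the slide as a fixed block and 1 with the slide as a random block, Bbc3 in hypo pups both times, and 0 under the other alternatives, including each left-out pup. With the fixed block, the hypo+ pup that was alone of its sex on its slide carried no information. The cause was not tested.

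Over the 80 differences of members (10 genes, 4 comparisons, 2 sexes), 25 exceeded 0.2 on the log2 scale, and none of the 727 values of those 25 under the alternatives had the opposite sign. Several alternatives cannot change a difference, such as a fit of only the compared groups or leaving out a pup of another group. A gene's other probe alone was not among the alternatives. It gave the opposite sign for Bcl2 in hypo+ males (-0.13 against 0.20) and for Bak1 in hyper females (-0.15 against 0.21). The same held for Bcl2l11 in hypo males (0.02 against -0.21). For Bmf in hyper females, probe A_51_P482239 gave -0.07 against 0.80. Over all 80, 88 of 2322 values had the opposite sign, none of them a call. The pups left out for pancreatic acinar RNA were chosen after seeing the data. Median centring in place of loess moved 24 values by more than the spread between pups. Signal over background limits 1 Bmf probe and the second Bcl2l11 probe, well above background on 13 and 24 of 34 arrays. Treatment groups share no replicate numbers in the labels, so that the slide was the only block used.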
